A study of Mus musculus with 10 samples.

Results

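In pro-B cells that depend on the Pax5-R31Q protein, 77 genes differed at least 2-fold from their level in wild-type pro-B cells, while in cells without Pax5 their mean was near the wild-type level or on its other side. They were chosen from the mean of log2(TPM + 1) of each genotype, where TPM is a read count corrected for gene length and for sequencing depth. A gene was taken when its mean TPM was at least 5 in Pax5(+/+) or Pax5(R31Q/-) pro-B cells and its Pax5(R31Q/-) mean differed from the Pax5(+/+) mean by at least 1. Its mean in the Pax5-null cells also had to lie within 0.5 of the Pax5(+/+) mean or on the other side of it, and genes of the immunoglobulin loci were dropped. Of 25579 genes in the files, 10210 reached that level, 366 of these differed by at least 1 in Pax5(R31Q/-), and 77 met the whole rule, 29 of them lower and 48 higher. The label of the group holds for the means by construction, although limma called 3 of the 77 in the same direction in Pax5-null cells, Slc43a1, Oaf and Prodh. The differences of Pax5(R31Q/-) and of the Pax5-null cells from Pax5(+/+) chose the genes, so they are given below as a description, and where limma calls in these contrasts are mentioned they support nothing about the set.

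RNA-seq was performed with mRNA of bone marrow cells sorted ex vivo from C57BL/6 mice, with 2 libraries for each of 4 genotypes. Pax5(+/+) cells were wild type, Pax5(+/-) cells had 1 functional allele, and Pax5(R31Q/-) cells carried the R31Q allele opposite a null allele. In Pax5(fl/fl) Vav-Cre cells, called Pax5-null here, floxed Pax5 was deleted by Cre under the Vav promoter, which acts throughout the hematopoietic system, and these 2 libraries are labelled as progenitor cells and the other 6 as pro-B cells. For every Pax5-null difference below, genotype and cell stage therefore cannot be told apart. Pax5 binding was mapped by ChIP-seq with an antibody against the paired domain in pro-B cells cultured in vitro. There was 1 library from Rag2(-/-) mice, which have wild-type Pax5 and are called Pax5(+/+) for these peaks. The other library came from Pax5(R31Q/-) mice, and its genotype label does not give Rag2. For every peak difference below, Pax5 and Rag2 genotype therefore cannot be told apart. Ages are not given in the labels, and nothing says that the libraries came from separate animals, so every spread and p-value refers to these libraries.

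Pax5 is the transcription factor that commits lymphoid progenitors to the B cell lineage. It binds DNA through a bipartite paired domain, activates genes of B cell identity and signaling, and represses genes of other lineages. Without Pax5, bone marrow progenitors stop at an early pro-B stage and keep the capacity to form other blood cells. The R31Q exchange lies in the paired domain.

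Sequencing depth on genes lay between 21625407 and 34488454 reads per library. Pax5 itself had 418 and 444 TPM in Pax5(+/+), 272 and 287 TPM in Pax5(+/-) and 306 and 293 TPM in Pax5(R31Q/-), and it was higher in both Pax5-null libraries, where a value per gene does not check the deletion of an exon. The correlation between the 2 libraries of a genotype across genes (Spearman, genes with a mean TPM over 5) was 0.992 for Pax5(+/-) and Pax5(R31Q/-), 0.979 for Pax5(+/+) and 0.970 for Pax5-null cells. The wider spread of the Pax5(+/+) pair bears on the genes described here. Of the 29 lower genes, 23 were higher in Pax5(+/+) library 2 than in library 1 (median difference 0.35 on the log2 scale), against 24 of the 48 higher genes (median 0.01) and 4753 of all 10210 (median -0.03). Without Pax5(+/+) library 2 the rule gave 74 genes (25 lower, 49 higher), of which 49 were among the 77, and without library 1 it gave 113 (50 lower, 63 higher), of which 51 were.

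Among the 29 lower genes, the Pax5-null mean was within 0.5 of wild type for 19 and higher by more than that for 10. Among the 48 higher genes, it was within 0.5 for 30 and lower by more than that for 18. The median difference from Pax5(+/+) was -1.23 in Pax5(R31Q/-) and 0.14 in Pax5-null cells for the lower genes, and 1.23 and -0.18 for the higher genes, where the 10210 genes had medians of 0.06 and -0.15. The Pax5(R31Q/-) and Pax5(+/+) libraries did not overlap for any of the 77, where 24.8% of the 10210 genes were lower and 37.3% higher without overlap. When library totals were rescaled by median ratios, 37 lower and 39 higher genes met the rule, and with quantile normalization 37 and 40, so the share of higher genes fell. Of 366 genes with a difference of at least 1, the rule took 29 of 217 lower genes (2.13% of the 10210 were that low) and 48 of 149 higher ones (1.46%).

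**Figure D1:**
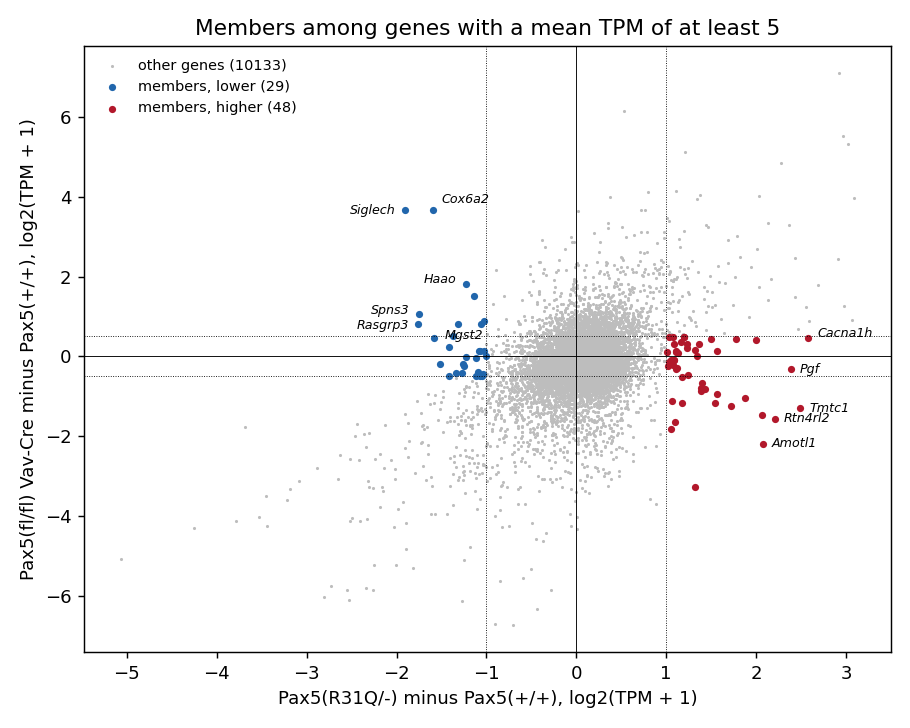
Difference from the Pax5(+/+) mean in Pax5(R31Q/-) (x axis) and in Pax5-null cells (y axis), both on the log2(TPM + 1) scale, for each gene with a mean TPM of at least 5; dotted lines mark the limits of the rule. The 29 lower genes (blue) and 48 higher genes (red) fill the regions inside these limits, with Siglech (-1.91, 3.66) and Cox6a2 (-1.60, 3.68) at the upper left and Amotl1 (2.07, -2.18) at the lower right.

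The lower genes with the widest split were Siglech and Cox6a2, both markers of plasmacytoid dendritic cells. Siglech encodes a sialic acid-binding receptor of these cells, and it had 11.7 and 3.37 TPM in the Pax5(+/+) libraries, 1.72 and 2.64 TPM in Pax5(+/-), 0.694 and 1.33 TPM in Pax5(R31Q/-), and 54.4 and 158 TPM in the Pax5-null libraries. Its Pax5(R31Q/-) difference was -1.91 ± 0.60 (SE from limma, n = 2 against 2) and its Pax5-null difference 3.66. The 2 Pax5(+/+) libraries were far apart, and without library 1 the Pax5(R31Q/-) difference was -1.14 and Siglech left the rule. Cox6a2, a subunit of cytochrome c oxidase, had 12.8 and 10.4 TPM in the Pax5(+/+) libraries, 7.04 and 5.37 TPM in Pax5(+/-), 2.94 and 3.34 TPM in Pax5(R31Q/-), and 123 and 206 TPM in the Pax5-null libraries. Here the 4 genotypes did not overlap, with Pax5(R31Q/-) lowest, Pax5(+/-) next and both Pax5-null libraries above 100 TPM. On a list of 8 markers of these dendritic cells, limma called 6 higher in Pax5-null cells (16.2% of 13436 genes were), and in Pax5(R31Q/-) it called 1, Cox6a2, lower (2.55% of all genes were, and 4.17% were called in either direction) and none higher. Ccr9 and Klk1 of this list were at 5.93 TPM or below in the 6 libraries with a functional or R31Q allele, and no marker was at 0 in any library. The summed TPM of the list was 778 and 805 in Pax5(+/+), 1140 and 948 in Pax5(+/-), 886 and 911 in Pax5(R31Q/-), and 3881 and 4840 in Pax5-null libraries. Most of it came from Ly6d, Bst2, Irf8 and Tcf4, and the part of dendritic cells in the values of Siglech and Cox6a2 was not tested. In bulk samples, fewer cells of a type and less RNA per cell cannot be told apart.

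Cd74 and H2-Aa, also among the lower genes, serve antigen presentation by MHC class II. Cd74, the invariant chain that guides class II molecules to the endosome, had 131 and 209 TPM in the Pax5(+/+) libraries, 160.1 and 135 TPM in Pax5(+/-), 49.7 and 75.7 TPM in Pax5(R31Q/-), and 148 and 259 TPM in the Pax5-null libraries. Both Pax5(R31Q/-) libraries were below the other 6, and the Pax5-null pair overlapped the wild-type range (difference 0.24). H2-Aa, the class II alpha chain, had 41.1 and 29.9 TPM in the Pax5(+/+) libraries, 20.6 and 24.3 TPM in Pax5(+/-), 13.1 and 19.99 TPM in Pax5(R31Q/-), and 23.9 and 62.5 TPM in the Pax5-null libraries. Its Pax5-null libraries differed more than 2-fold from each other and enclosed the wild-type values, so its near-zero Pax5-null mean (0.14) rests on 2 unlike libraries. Of 10 genes on a list for MHC class II, limma called 3 lower in Pax5(R31Q/-) (H2-Ab1, H2-Oa and H2-Ob; 2.55% of all genes tested were) and none higher (1.62% were), and in Pax5-null cells it called 2 lower (H2-Ab1 and H2-Ob) and 3 higher (H2-DMa, H2-DMb1 and H2-DMb2), where 19.7% of all genes were lower and 16.2% higher. Neither Cd74 nor H2-Aa was called by limma on log2(TPM + 1) in either comparison, whereas limma-voom on recovered reads called Cd74 lower in Pax5(R31Q/-).

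The lower genes of cell surface receptors and ligands were Cxcr5, Tlr12, Pear1, Sema4b and Clcf1. Cxcr5, the chemokine receptor that guides B cells into follicles, had 14.2 and 31.5 TPM in the Pax5(+/+) libraries, 25.3 and 24.8 TPM in Pax5(+/-), 9.53 and 9.802 TPM in Pax5(R31Q/-), and 40.9 and 35.8 TPM in the Pax5-null libraries. Its wild-type libraries differed more than 2-fold, both Pax5-null values were above them, and without Pax5(+/+) library 2 the Pax5(R31Q/-) difference was -0.51. Tlr12, a Toll-like receptor that senses profilin, had 10.8 and 11.01 TPM in the Pax5(+/+) libraries, 10.3 and 10.2 TPM in Pax5(+/-), 4.03 and 3.45 TPM in Pax5(R31Q/-), and 7.35 and 8.696 TPM in the Pax5-null libraries. The 6 other libraries lay between 7.35 TPM and 11.01 TPM, and both Pax5(R31Q/-) libraries at 4.03 TPM or below. Pear1, a receptor of platelets and endothelium, was at 48.2 and 93.7 TPM in Pax5(+/+), 43.4 and 32.5 TPM in Pax5(+/-), 28.1 and 26.2 TPM in Pax5(R31Q/-) and 53.3 and 47.7 TPM in Pax5-null libraries. The semaphorin Sema4b (difference -1.11 in Pax5(R31Q/-), -0.05 in Pax5-null) and Clcf1, a cytokine of the interleukin 6 family (-1.12 and -0.48), completed the set.

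Signal transducers were represented by Rasgrp3, Zap70 and Arap3. Rasgrp3, an exchange factor that activates Ras downstream of the B cell receptor, had 8.22 and 10.2 TPM in the Pax5(+/+) libraries, 4.86 and 5.18 TPM in Pax5(+/-), 1.82 and 2.19 TPM in Pax5(R31Q/-), and 11.8 and 24.0 TPM in the Pax5-null libraries. The order of the genotypes was Pax5(R31Q/-), Pax5(+/-), Pax5(+/+) and Pax5-null without overlap, at a Pax5(R31Q/-) difference of -1.76 ± 0.30 (SE, n = 2 against 2). The tyrosine kinase gene Zap70 fell just inside the rule (-1.03, from 11.4 and 14.9 TPM to 7.07 and 4.89 TPM), as did Arap3, a regulator of Arf GTPases (-1.08). Transcription factor genes of the lower group were Hoxa9 and Zfp580. Hoxa9, a homeobox gene of hematopoietic progenitors, had 5.41 and 9.26 TPM in the Pax5(+/+) libraries, 3.99 and 4.36 TPM in Pax5(+/-), 1.67 and 2.002 TPM in Pax5(R31Q/-), and 7.44 and 4.997 TPM in the Pax5-null libraries. Its Pax5-null values overlapped those of wild type, and both Pax5(+/-) values lay between wild type and Pax5(R31Q/-). The zinc finger gene Zfp580 was at 5.15 and 8.92 TPM in Pax5(+/+), 1.69 and 2.67 TPM in Pax5(R31Q/-) and 15.02 and 10.8 TPM in Pax5-null libraries.

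Enzyme genes of metabolism fell into the lower group with 3 members outside the glutathione transferases. Haao, an enzyme of tryptophan breakdown along the kynurenine route, had 12.7 and 15.7 TPM in the Pax5(+/+) libraries, 8.67 and 10.6 TPM in Pax5(+/-), 5.87 and 5.04 TPM in Pax5(R31Q/-), and 47.2 and 58.2 TPM in the Pax5-null libraries. Pygm, the glycogen phosphorylase of muscle, had 18.03 and 25.8 TPM in the Pax5(+/+) libraries, 18.4 and 16.04 TPM in Pax5(+/-), 10.03 and 8.47 TPM in Pax5(R31Q/-), and 65.6 and 62.6 TPM in the Pax5-null libraries. Both were therefore lowest in Pax5(R31Q/-) and more than 2-fold above wild type in Pax5-null libraries. Prodh, the first enzyme of proline breakdown, was at 22.2 and 25.97 TPM in Pax5(+/+) and about as low in Pax5(+/-) (11.7 and 12.3 TPM) as in Pax5(R31Q/-) (11.7 and 10.5 TPM), with a Pax5-null difference of -0.50 just under the limit. Among transporters, Spns3, of the spinster family, had 70.7 and 90.1 TPM in the Pax5(+/+) libraries, 49.5 and 39.2 TPM in Pax5(+/-), 24.4 and 21.6 TPM in Pax5(R31Q/-), and 164 and 170.1 TPM in the Pax5-null libraries. Its genotypes were fully ordered, as for Rasgrp3, at -1.75 ± 0.16 (SE, n = 2 against 2) in Pax5(R31Q/-), and Slc17a9, the vesicular nucleotide transporter, differed by -1.26. The 5 remaining protein-coding genes of the lower group encode proteins of the secretory pathway, lysosome and matrix, or a protease: Rcn3 (-1.37), Itih5 (-1.25), Emid1 (-1.10), Capn5 (-1.23) and Grn (-1.02). Rcn3, a calcium-binding protein of the endoplasmic reticulum, was at 19.6 and 30.99 TPM in Pax5(+/+), 7.86 and 10.1 TPM in Pax5(R31Q/-) and 40.7 and 30.98 TPM in Pax5-null libraries, and Grn, the precursor of granulins, was highest in Pax5-null libraries at 141 and 186 TPM.

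**Figure D2:**
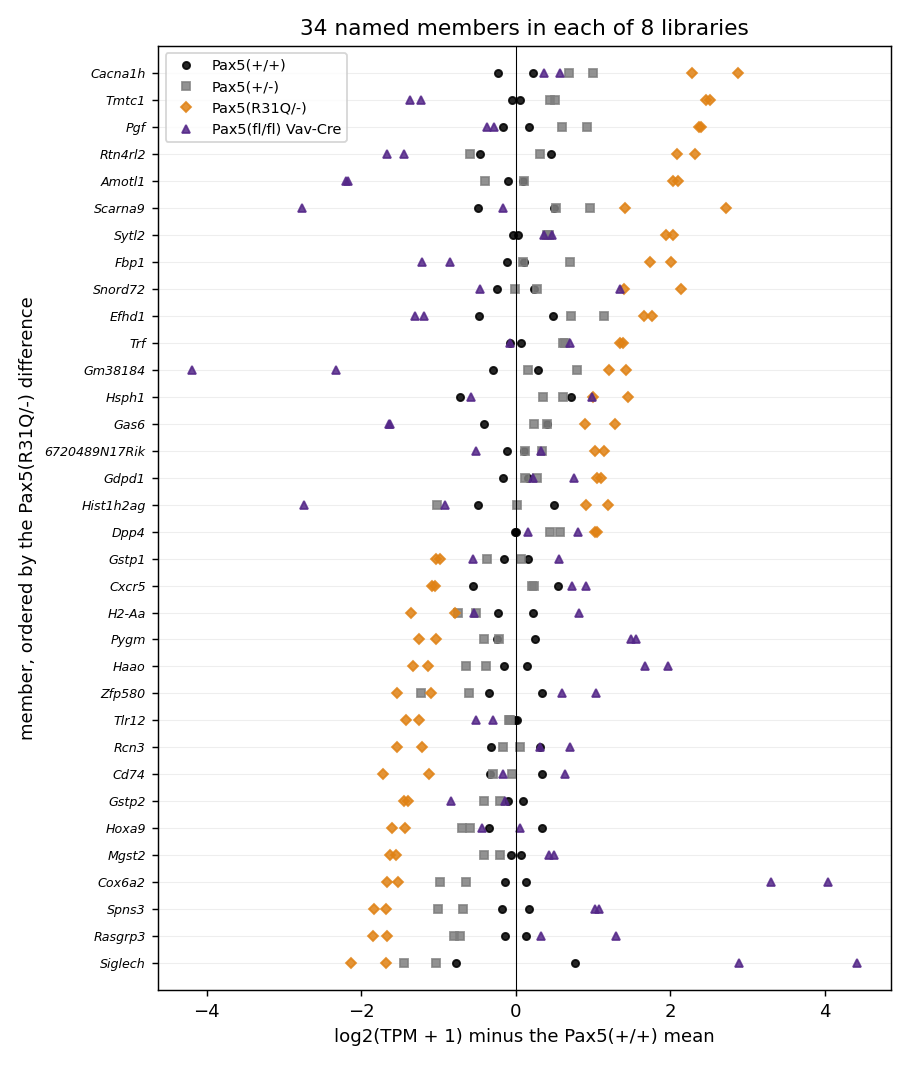
Each of the 8 libraries for the 34 named genes, as log2(TPM + 1) minus the mean of the 2 Pax5(+/+) libraries (x axis); genes are ordered by their Pax5(R31Q/-) difference and each point is 1 library. The Pax5(R31Q/-) points of a gene lie on 1 side of its Pax5(+/+) points, while the mean of the Pax5-null points ranges from -3.26 for Gm38184 to 3.68 for Cox6a2.

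Glutathione transferases attach glutathione to reactive compounds, and 3 of them were among the lower genes: Mgst2, a membrane-bound enzyme, and the pi-class genes Gstp1 and Gstp2. Mgst2 (chr3, from 51636912) had 168 and 154 TPM in the Pax5(+/+) libraries, 121 and 139.6 TPM in Pax5(+/-), 54.3 and 51.6 TPM in Pax5(R31Q/-), and 218 and 228 TPM in the Pax5-null libraries. The 2 libraries of each genotype were close together, no genotypes overlapped, and the Pax5(R31Q/-) difference was -1.59 ± 0.11 (SE, n = 2 against 2). Gstp2 had 61.6 and 70.6 TPM in the Pax5(+/+) libraries, 49.6 and 57.3 TPM in Pax5(+/-), 24.5 and 23.6 TPM in Pax5(R31Q/-), and 59.7 and 36.3 TPM in the Pax5-null libraries. Gstp1 was at 229 and 184 TPM in Pax5(+/+), 158 and 214 TPM in Pax5(+/-) and 104 and 99.6 TPM in Pax5(R31Q/-), and its Pax5-null libraries, at 304 and 139.9 TPM, lay on either side of wild type. Gstp1 and Gstp2 are near-identical neighboring copies, so the split of reads between them is uncertain. Across the whole family by symbol, a set formed after these values were seen, 12 of 25 genes reached the level of the rule, 5 of these were lower by at least 1 in Pax5(R31Q/-) and none were higher by at least 1 (2.13% and 1.46% of the 10210 genes were). The other 2 were no members because they were lower in Pax5-null cells as well: Gstt2 had 146 and 195 TPM in the Pax5(+/+) libraries, 133 and 133 TPM in Pax5(+/-), 76.6 and 74.8 TPM in Pax5(R31Q/-), and 63.1 and 54.1 TPM in the Pax5-null libraries, and Mgst1 had 60.9 and 37.5 TPM in the Pax5(+/+) libraries, 25.7 and 34.9 TPM in Pax5(+/-), 15.1 and 9.20 TPM in Pax5(R31Q/-), and 5.96 and 1.16 TPM in the Pax5-null libraries. Gsto1 went the other way, with 0.62 in Pax5(R31Q/-) and 1.73 in Pax5-null cells.

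**Figure D3:**
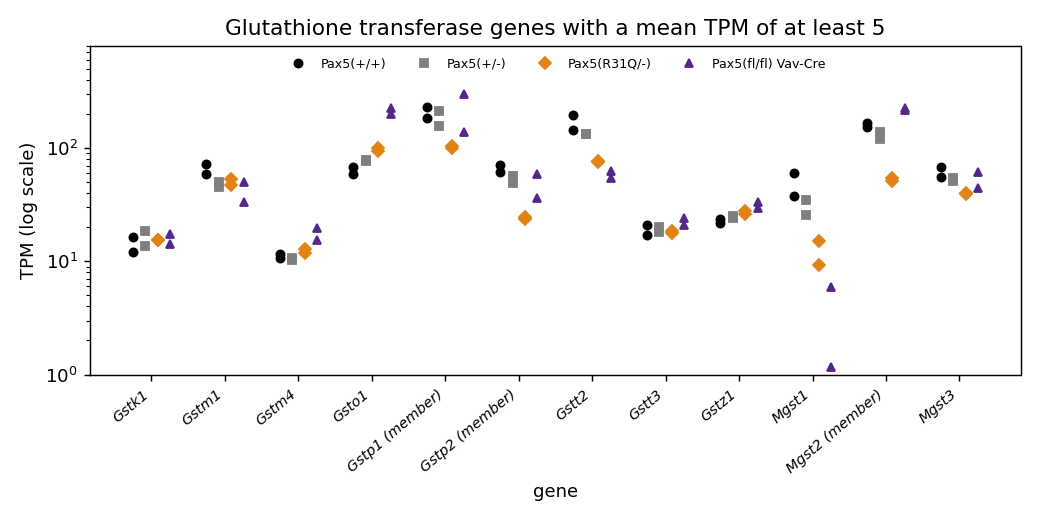
TPM on a log axis in each library for the 12 glutathione transferase genes with a mean TPM of at least 5; each point is 1 library and the 3 genes that met the rule are marked as members. The Pax5(R31Q/-) points of Mgst2, Gstp1 and Gstp2 lie below all other points, while for Gstt2 and Mgst1 the Pax5-null points lie lowest.

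These 3 genes were also the only ones of the 29 lower genes whose Pax5 peaks near a transcription start site (TSS) in wild-type cells were all without an overlapping peak in Pax5(R31Q/-) cells. Windows of 251 bases at the midpoints of such peaks are shown, as they mark Pax5(+/+) peaks without an overlapping peak in Pax5(R31Q/-). Beside them is the peak found only in Pax5(R31Q/-) at the Mgst2 start. All windows are from RefSeq GRCm38.p6, on the strand of the gene, with each CG dinucleotide in capitals.
Gstp1, lost, intron, chr19:4036756-4037006 (minus strand): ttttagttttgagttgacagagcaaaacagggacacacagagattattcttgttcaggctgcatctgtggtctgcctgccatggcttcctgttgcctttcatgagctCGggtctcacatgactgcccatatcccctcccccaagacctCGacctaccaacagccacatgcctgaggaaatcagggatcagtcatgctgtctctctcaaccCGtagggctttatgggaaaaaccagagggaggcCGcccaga
Gstp2, lost, intron, chr19:4041045-4041295 (minus strand): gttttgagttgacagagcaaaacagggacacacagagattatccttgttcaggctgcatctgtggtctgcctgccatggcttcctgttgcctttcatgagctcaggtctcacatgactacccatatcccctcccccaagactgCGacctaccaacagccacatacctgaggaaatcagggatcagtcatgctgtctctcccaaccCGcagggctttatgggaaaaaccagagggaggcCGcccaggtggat
Mgst2, lost, upstream, chr3:51636067-51636317 (plus strand): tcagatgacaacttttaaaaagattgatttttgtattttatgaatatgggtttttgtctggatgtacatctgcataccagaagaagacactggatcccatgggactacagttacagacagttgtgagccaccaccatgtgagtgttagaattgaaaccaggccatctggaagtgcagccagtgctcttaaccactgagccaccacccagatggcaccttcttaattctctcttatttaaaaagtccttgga
Mgst2, Pax5(R31Q/-) only, exon, chr3:51636788-51637038 (plus strand): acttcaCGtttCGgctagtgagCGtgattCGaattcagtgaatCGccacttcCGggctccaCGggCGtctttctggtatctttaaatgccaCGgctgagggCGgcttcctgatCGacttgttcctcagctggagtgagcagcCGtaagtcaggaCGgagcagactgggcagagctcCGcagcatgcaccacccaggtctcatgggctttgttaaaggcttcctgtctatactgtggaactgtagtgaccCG
The Gstp1 and Gstp2 windows have midpoints at matching places 1031 and 1051 bp downstream of the start in an intron and share 237 of 245 aligned bases (96.7% identity). With copies this alike, the 2 peaks are not independent. The lost Mgst2 window, 720 bp upstream of the start and outside genes, holds no CG and is 51.8% repeat-masked, whereas the Pax5(R31Q/-)-only one, 1 bp from the start and also in an exon of Gm38247, holds 15. A second lost peak of Mgst2 lies 50 bp before an alternative start in an intron, at chr3:51660951-51661201. A lost peak here is one without an overlapping peak in the other list.

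Secreted proteins were represented by 6 of the 48 higher genes. Pgf, the placental growth factor of the VEGF family, had 1.79 and 2.54 TPM in the Pax5(+/+) libraries, 3.77 and 4.96 TPM in Pax5(+/-), 15.5 and 15.3 TPM in Pax5(R31Q/-), and 1.42 and 1.599 TPM in the Pax5-null libraries. Pax5(R31Q/-) exceeded every other library at least 3-fold, with a difference of 2.39 ± 0.20 (SE, n = 2 against 2). Trf, the iron carrier transferrin and the gene with the highest mean TPM of the 77, had 137 and 151 TPM in the Pax5(+/+) libraries, 220.4 and 225 TPM in Pax5(+/-), 368 and 377 TPM in Pax5(R31Q/-), and 234 and 137 TPM in the Pax5-null libraries. Its Pax5-null libraries reached from the wild-type level to just above that of Pax5(+/-). Gas6, the ligand of the TAM receptor kinases, was at 3.24 and 6.43 TPM in Pax5(+/+), 12.7 and 9.49 TPM in Pax5(R31Q/-) and 0.807 and 0.819 TPM in Pax5-null libraries. Oaf had 19.6 and 19.97 TPM in the Pax5(+/+) libraries, 39.97 and 36.1 TPM in Pax5(+/-), 44.9 and 45.95 TPM in Pax5(R31Q/-), and 26.7 and 25.1 TPM in the Pax5-null libraries. It stood near its Pax5(R31Q/-) level in Pax5(+/-) already. The protease genes Prss12 and Adamts7 differed by 1.38 and 1.01.

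Surface and adhesion proteins of the higher group were Rtn4rl2, Itga9, Dpp4 and Muc13. Rtn4rl2, a receptor related to the Nogo receptor, had 1.31 and 3.38 TPM in the Pax5(+/+) libraries, 2.97 and 1.11 TPM in Pax5(+/-), 14.9 and 12.5 TPM in Pax5(R31Q/-), and 0 and 0.168 TPM in the Pax5-null libraries. It was thus close to 0 in Pax5-null cells and highest in Pax5(R31Q/-), at 2.21 ± 0.38 (SE, n = 2 against 2). Dpp4, the surface peptidase also called CD26, had 110.3 and 109.8 TPM in the Pax5(+/+) libraries, 150.2 and 164 TPM in Pax5(+/-), 228 and 225 TPM in Pax5(R31Q/-), and 123 and 193 TPM in the Pax5-null libraries. Both Pax5(+/-) values lay between those of wild type and Pax5(R31Q/-), and the Pax5-null difference of 0.48 was just under the limit. The integrin alpha chain gene Itga9 (1.12) and the mucin gene Muc13 (1.08) had Pax5-null differences of -0.30 and 0.31.

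Cacna1h and Tmtc1 had the 2 largest positive differences and are described with the transporters and membrane proteins. Cacna1h, the pore of a T-type calcium channel, had 0.8996 and 1.61 TPM in the Pax5(+/+) libraries, 2.596 and 3.46 TPM in Pax5(+/-), 15.5 and 9.82 TPM in Pax5(R31Q/-), and 1.88 and 2.31 TPM in the Pax5-null libraries, a difference of 2.58 ± 0.27 (SE, n = 2 against 2). On its low wild-type level, the Pax5-null difference of 0.47 depended on the pseudocount, and with a pseudocount of 0.1 or either rescaling the gene no longer met the rule. Tmtc1, an enzyme of the endoplasmic reticulum that adds mannose to proteins, had 2.26 and 2.04 TPM in the Pax5(+/+) libraries, 3.48 and 3.27 TPM in Pax5(+/-), 16.9 and 16.4 TPM in Pax5(R31Q/-), and 0.346 and 0.221 TPM in the Pax5-null libraries. Its difference of 2.49 ± 0.16 (SE, n = 2 against 2) was in the opposite direction in both Pax5-null libraries (-1.30 in the mean). Sytl2, a Rab effector that tethers vesicles, had 3.62 and 3.43 TPM in the Pax5(+/+) libraries, 5.01 and 5.09 TPM in Pax5(+/-), 16.5 and 17.6 TPM in Pax5(R31Q/-), and 4.86 and 5.26 TPM in the Pax5-null libraries. The 6 other libraries stayed at 5.26 TPM or below. Slc43a1, an amino acid transporter, was at 45.9 and 42.3 TPM in Pax5(+/+), 107 and 98.97 TPM in Pax5(R31Q/-) and 62.1 and 61.8 TPM in Pax5-null libraries, which lay clear of wild type (difference 0.48, adjusted p = 0.0101 from limma). Of the others, Mctp1 (1.38) and Clic6 (1.09) made up the rest.

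The transcription factor genes among the higher group were Epas1, Esrrb and the zinc finger gene 6720489N17Rik. Epas1, which encodes the hypoxia-inducible factor HIF-2alpha, was at 2.11 and 1.97 TPM in Pax5(+/+), 2.73 and 2.18 TPM in Pax5(+/-), 8.36 and 6.92 TPM in Pax5(R31Q/-) and 2.66 and 3.56 TPM in Pax5-null libraries. Esrrb, an orphan nuclear receptor of stem cells, was at 2.395 and 1.76 TPM, 2.66 and 3.43 TPM, 7.55 and 6.63 TPM and 0.626 and 1.33 TPM in the same order. Both stayed at 3.56 TPM or below outside Pax5(R31Q/-). Values of 6720489N17Rik were 2.89 and 2.34 TPM in Pax5(+/+) and 6.98 and 6.34 TPM in Pax5(R31Q/-).

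Scaffold, cytoskeletal and signaling proteins gave 7 higher genes. Amotl1, an angiomotin-like scaffold at cell junctions that acts in the Hippo pathway, had 4.16 and 4.87 TPM in the Pax5(+/+) libraries, 3.18 and 4.91 TPM in Pax5(+/-), 22.6 and 21.7 TPM in Pax5(R31Q/-), and 0.201 and 0.221 TPM in the Pax5-null libraries. Its differences were opposite: 2.07 ± 0.20 (SE, n = 2 against 2) in Pax5(R31Q/-), -2.18 in Pax5-null and -0.15 in Pax5(+/-). Efhd1, a mitochondrial calcium-binding protein, had 10.9 and 22.1 TPM in the Pax5(+/+) libraries, 35.5 and 26.2 TPM in Pax5(+/-), 55.2 and 51.6 TPM in Pax5(R31Q/-), and 5.72 and 6.26 TPM in the Pax5-null libraries. In this case the 4 genotypes were ordered without overlap from Pax5-null to Pax5(R31Q/-). Ypel2 (1.56), Wdfy3, a scaffold of selective autophagy (1.24), Aph1b, a subunit of gamma-secretase (1.43), Nav2 (1.20) and Arhgap32 (1.03) were the others.

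Of the metabolic enzymes, Fbp1, the fructose bisphosphatase of gluconeogenesis, had 8.26 and 9.75 TPM in the Pax5(+/+) libraries, 15.2 and 9.68 TPM in Pax5(+/-), 39.2 and 32.4 TPM in Pax5(R31Q/-), and 4.52 and 3.302 TPM in the Pax5-null libraries. Pax5(R31Q/-) was at least 2-fold above every other library and the Pax5-null libraries were below wild type. Gdpd1, a phosphodiesterase of lysophospholipids (2.34 and 1.69 TPM in Pax5(+/+), 5.202 and 5.47 TPM in Pax5(R31Q/-)), and the glutaredoxin Glrx3 (1.11) were lower in level. Gdpd1 met the rule under only 5 of 14 alternative settings, the fewest of the 77. The chaperone genes were Hsph1 and Ppic, a cyclophilin (1.56). Hsbp1l1 (1.32), named after a heat shock factor binding protein, was grouped with them. Ppic had 8.77 and 3.195 TPM in the Pax5(+/+) libraries, and without Pax5(+/+) library 2 it left the rule. Hsph1, a heat shock protein that assists protein refolding, had 69.01 and 24.9 TPM in the Pax5(+/+) libraries, 53.5 and 64.4 TPM in Pax5(+/-), 116 and 84.5 TPM in Pax5(R31Q/-), and 27.5 and 83.7 TPM in the Pax5-null libraries. The spread of its wild-type libraries was wider than the gap between the higher of them and the lower Pax5(R31Q/-) library, and without either Pax5(+/+) library it left the rule. Of 10 heat shock genes tested, limma called 1 higher in Pax5(R31Q/-) (1.62% of all genes were) and 1 in Pax5-null cells (16.2% were), in each case Bag3 and not Hsph1.

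Other higher genes were the histone gene Hist1h2ag, Rpl31-ps12, Rbm44, Rtl5, Gm38184 and Mir17hg. Hist1h2ag, one of many near-identical histone genes whose counts are uncertain, had 121 and 60.9 TPM in the Pax5(+/+) libraries, 41.98 and 86.8 TPM in Pax5(+/-), 162 and 198 TPM in Pax5(R31Q/-), and 12.04 and 45.1 TPM in the Pax5-null libraries. Gm38184, which had no match in RefSeq, had 13.99 and 21.4 TPM in the Pax5(+/+) libraries, 19.6 and 30.7 TPM in Pax5(+/-), 41.3 and 48.1 TPM in Pax5(R31Q/-), and 2.65 and 0 TPM in the Pax5-null libraries. Mir17hg is the host transcript of the miR-17-92 cluster, a group of microRNAs that supports early B cell survival. It was at 8.79 and 10.2 TPM in Pax5(+/+), 12.2 and 14.9 TPM in Pax5(+/-), 25.5 and 18.1 TPM in Pax5(R31Q/-) and 4.35 and 12.4 TPM in Pax5-null libraries. The 5 mature microRNAs below, with the seed (bases 2 to 8) in capitals, are among the products of the cluster. They are from RefSeq GRCm38.p6, and poly(A) RNA-seq does not measure them. In this annotation Mir17hg starts at chr14:115044390, and of the 5 only miR-92a-3p lies inside it.
miR-17-5p: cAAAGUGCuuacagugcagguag
miR-20a-5p: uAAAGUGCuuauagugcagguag
miR-18a-5p: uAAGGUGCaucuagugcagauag
miR-19b-3p: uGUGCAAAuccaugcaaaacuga
miR-92a-3p: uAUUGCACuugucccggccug
The first 2 share the seed AAAGUGC.

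A share of 15.6% of the 77 genes (12) were short RNAs, that is microRNA, snoRNA or scaRNA genes of at most 105 bp, against 1.20% of the 10210 genes (123). Lower were 2 (Mir425 and Mir6973a) and 10 higher. Scarna9, a guide RNA of 42 bp, had 8.55 and 3.84 TPM in the Pax5(+/+) libraries, 8.77 and 12.3 TPM in Pax5(+/-), 17.1 and 43.7 TPM in Pax5(R31Q/-), and 0 and 5.05 TPM in the Pax5-null libraries, and its host gene Cep295 differed by 0.23 only. Snord72 had 5.99 and 4.03 TPM in the Pax5(+/+) libraries, 4.91 and 6.15 TPM in Pax5(+/-), 25.1 and 14.7 TPM in Pax5(R31Q/-), and 3.32 and 14.2 TPM in the Pax5-null libraries, against 0.37 for its host Rpl37. The 2 Pax5(R31Q/-) libraries of Scarna9 differed more than 2-fold and the values rest on few reads over a short length. A gene on the same strand was found in the files for 9 of the 12, and these hosts differed by -0.50 to 0.37 in Pax5(R31Q/-). Poly(A) selection does not retain mature RNAs of this kind, and how the reads of host transcripts enter these values was not tested.

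The Pax5(+/-) cells were not used by the rule, but each comparison with them uses libraries that chose the genes. limma called 3 of 13436 genes in Pax5(+/-) against Pax5(+/+) (0.0223%), and 0 of the 77. At an unadjusted p under 0.05, 13 of the 29 lower and 12 of the 48 higher genes passed, each in the direction of its Pax5(R31Q/-) difference, where 6.06% of all genes passed in either direction. These counts share the Pax5(+/+) libraries with the rule, which took genes where those libraries were high or low, so they are not independent of it. The smallest adjusted p-values were 0.0692 for Oaf (0.91 ± 0.12, SE, higher in 2 of 2 libraries) and 0.104 for Prodh (-0.95 ± 0.15, lower in 2 of 2), and without a filter on low values Oaf was called (adjusted p = 0.0426 from limma). limma-voom on recovered reads called 35 genes and none of the 77. The median Pax5(+/-) difference was -0.51 for the lower genes and 0.41 for the higher ones, against 0.03 over the 10210 genes. It was negative for 27 of the 29 lower genes (42.6% of all) and positive for 39 of the 48 higher genes (57.4% of all).

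Both Pax5(+/-) libraries lay strictly between those of wild type and Pax5(R31Q/-) for 19 of the 29 lower and 24 of the 48 higher genes. Among all genes lower or higher by at least 1 without overlap, whatever their Pax5-null value, the shares were 76.4% of 216 and 59.7% of 149. Mgst2, Tmtc1, Pgf, Spns3 and Rasgrp3 were of this kind. In 7 lower and 20 higher genes the Pax5(+/-) libraries were clear of Pax5(R31Q/-) but overlapped wild type, as for Amotl1 and Cd74.

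In Pax5(R31Q/-) against Pax5(+/-), which have 1 null allele each and differ in the other, limma called 83 genes (0.618%), among them 2 of the 29 lower and 8 of the 48 higher genes. This contrast shares the Pax5(R31Q/-) libraries with the rule. The lower genes were Mgst2 (-1.28 ± 0.11, SE, adjusted p = 0.00699) and Tlr12 (-1.25 ± 0.16, adjusted p = 0.0229). The higher genes were Tmtc1 (2.02 ± 0.16, adjusted p = 0.00487), Amotl1 (2.22 ± 0.20, adjusted p = 0.00782), Sytl2 (1.58 ± 0.15, adjusted p = 0.00887), Pgf, Prss12, Epas1, Cacna1h and Mctp1, the last 5 with adjusted p-values from 0.0212 to 0.0461. Each was lower or higher in 2 of 2 libraries. Without either Pax5(R31Q/-) library or without Pax5(+/-) library 1, no gene was called in this contrast, and without Pax5(+/-) library 2, 9 genes were called with 1 of the 77. limma-voom on recovered reads called 193 genes with 22 of the 77, and a fit of only these 2 genotypes 403 genes with 44 of the 77.

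How well the pattern held in libraries that did not choose it was read by applying the rule to 1 library of each genotype and looking at the other. Library numbers are only names here and pair nothing. In libraries 1 the rule chose 22 lower and 70 higher genes. In libraries 2, 11 of the 22 were again lower by at least 1 and 7 met the whole rule, and 31 of the 70 (44.3%) were again higher by at least 1 and 20 met the whole rule. Of all genes of that level, 3.70% were that low and 1.96% that high in libraries 2. In the reverse direction, 9 of 62 lower genes (14.5%) and 23 of 61 higher genes (37.7%) kept a difference of at least 1 in libraries 1, where 1.64% and 1.71% of all genes reached it. The whole rule was met by 7 of these 62 (11.3%, against 31.8% of the 22) and 21 of these 61. For genes chosen on the Pax5(R31Q/-) difference alone, whatever the Pax5-null value, 132 of 167 lower genes (79.0%) and 91 of 174 higher genes (52.3%) held from libraries 1 to 2, and 140 of 380 (36.8%) and 94 of 201 (46.8%) from 2 to 1. The direction was kept more often than the size, by 21 of 22, 64 of 70, 57 of 62 and 54 of 61 genes, where genes chosen whatever the Pax5-null value kept it in 159 of 167, 164 of 174, 359 of 380 and 186 of 201.

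**Figure D4:**
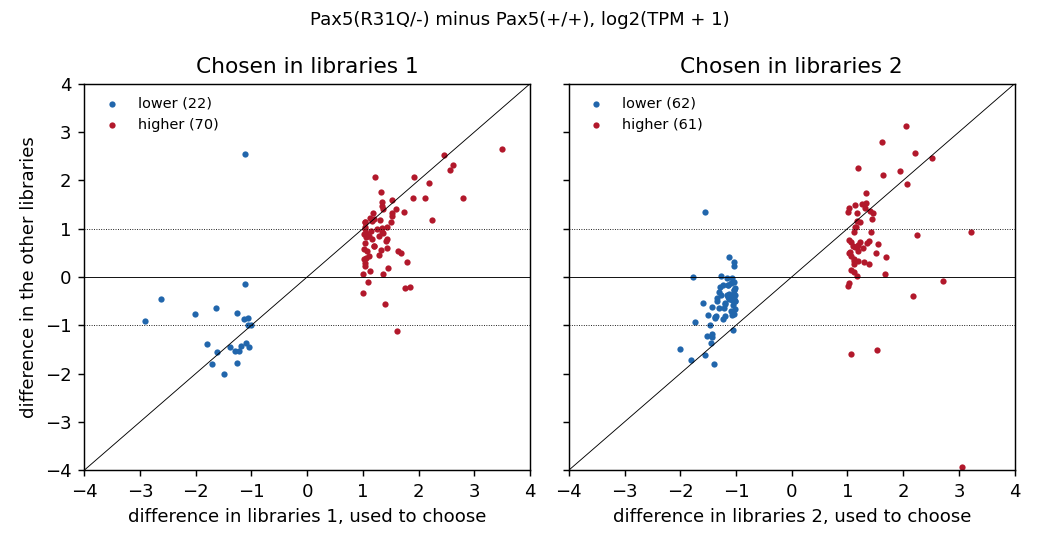
Difference of Pax5(R31Q/-) from Pax5(+/+) in log2(TPM + 1) in the libraries used to apply the rule (x axis) and in the libraries not used (y axis), for genes chosen in libraries 1 (left) or 2 (right); each point is 1 gene and the diagonal marks equal values. Most points keep their sign but lie nearer to 0 on the y axis, with medians of -1.19 and 0.92 on the left and -0.49 and 0.72 on the right.

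Leaving out each of the 6 libraries of the rule in turn, 25 of the 77 genes (7 lower, 18 higher) met it every time. Under every alternative setting, 10 did: Mgst2, Spns3 and Cox6a2 among the lower genes, and Tmtc1, Pgf, Rtn4rl2, Amotl1, Scarna9, Fbp1 and Efhd1 among the higher ones. Close to the limit of 1, Gstp1 (-1.01), Grn (-1.02) and Zap70 (-1.03) were the nearest lower genes inside and Aes (-0.99) was among the nearest outside. On the higher side, Adamts7 (1.01), Mir6385 (1.02) and Arhgap32 (1.03) were inside and Haus3 (0.99) was outside. At the limit of the Pax5-null difference, Prodh (-0.50), Gstp2 (-0.49) and Mir425 (-0.49) were inside and Kdm5b (-0.52) outside on the lower side, and Gdpd1 (0.49), Dpp4 (0.48) and Nav2 (0.48) inside and S100a8 (0.54) outside on the higher side. S100a8 is a granulocyte gene, and the granulocyte and macrophage list that holds it had 0 of 15 genes called in Pax5(R31Q/-) by limma, where 4.17% of all genes were called and a count of 0 says little, with a summed TPM of 721 to 968 in Pax5(+/+), 1210 to 2326 in Pax5(+/-), 1374 to 1491 in Pax5(R31Q/-) and 618 to 3693 in Pax5-null libraries. The part of such cells in the values of the 48 higher genes was not tested.

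Pax5 binding was taken from the peak lists, which hold 41983 peaks for Pax5(+/+) and 18821 for Pax5(R31Q/-); 15727 of the former overlapped one of the latter. These peaks are independent of the rule, come from 1 library per genotype and have no replicate check. Pax5(+/+) pro-B cells had a peak at most 1 kb from a TSS for 18 of the 29 lower genes (62.1%) and 18 of the 47 higher genes with a start in RefSeq (38.3%), against 78.1% of 10190 genes of that level. The higher genes are expressed at a lower level in wild-type cells, where such peaks were rarer: among genes under 5 TPM in Pax5(+/+), 7 of 20 higher genes (35.0%) and 47.8% of all 299 had one. From 5 to 20 TPM, the shares were 54.5% of 11 lower genes, 35.0% of 20 higher genes and 68.7% of all 2929. At 20 TPM and above they were 66.7% of 18, 57.1% of 7 and 83.4% of 6962. The members therefore had fewer such peaks than all genes in each class that they occupied, a description with no test, and several higher members in the middle class are short RNAs.

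**Figure D5:**
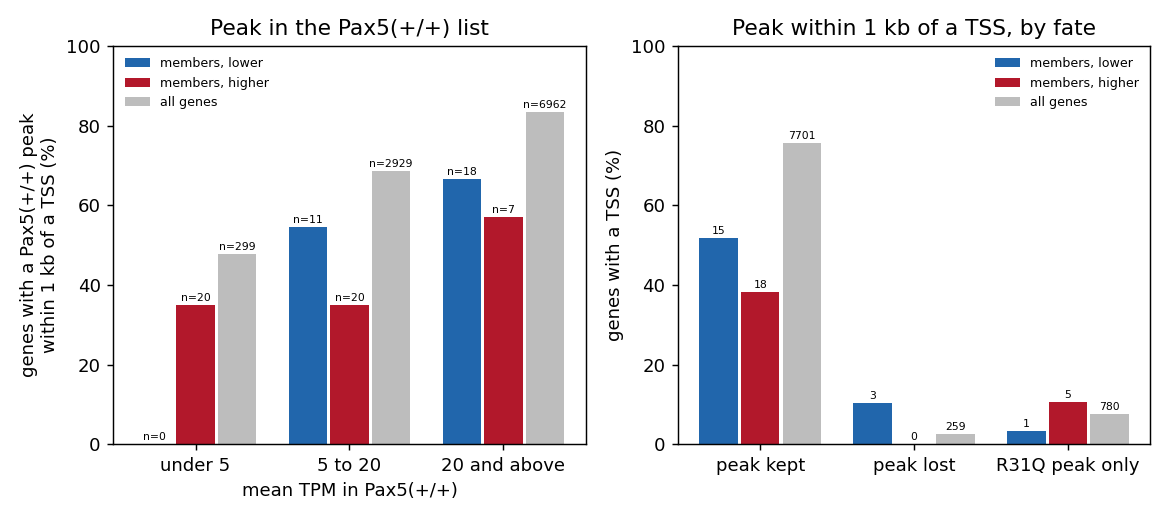
Left, percentage of genes with a Pax5(+/+) peak at most 1 kb from a TSS, by mean TPM in Pax5(+/+), for lower genes (blue), higher genes (red) and all genes of that level (grey), with the number of genes above each bar. Right, percentage of genes whose TSS peak was kept, lost or found in Pax5(R31Q/-) only, with the number of genes above each bar. A gene counts as kept when at least 1 of its TSS peaks was kept. All such peaks were lost for 3 lower genes and no higher gene.

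A gene counted as kept when at least 1 of its Pax5(+/+) TSS peaks was kept, and as lost when none was. By this count 15 of the 18 lower genes were kept and 3 were lost. All 18 of the higher genes were kept, where 3.25% of 7960 genes with such a peak were lost. Sema4b and Itga9 counted as kept, although each also had a TSS peak without an overlapping peak in Pax5(R31Q/-). When a shared peak had to cover at least 0.5 of both peaks, 4 of the 18 lower genes had lost theirs (22.22%), against 14.74% of all genes with a peak, so the gap to the background rests on the overlap that counts as shared. A Pax5(R31Q/-) peak and no Pax5(+/+) peak lay at the start for 5 of the 47 higher genes (10.64%) and 1 of the 29 lower genes (3.45%), near the 7.65% of 10190 genes. The 5 higher genes were Cacna1h, Rtn4rl2, Sytl2, 6720489N17Rik and Gdpd1. The lower gene was Zfp580, whose window lies in a coding exon of its neighbor Zfp784. Pgf and Aph1b had a Pax5(R31Q/-)-only peak, 17 bp upstream and 656 bp downstream of the start, beside a peak found in both lists, and Mgst2 had the one shown above. Of these windows, 2 are shown as examples of such peaks at the higher genes with large differences, again with each CG in capitals.
Cacna1h, Pax5(R31Q/-) only, exon, chr17:25433711-25433961 (minus strand): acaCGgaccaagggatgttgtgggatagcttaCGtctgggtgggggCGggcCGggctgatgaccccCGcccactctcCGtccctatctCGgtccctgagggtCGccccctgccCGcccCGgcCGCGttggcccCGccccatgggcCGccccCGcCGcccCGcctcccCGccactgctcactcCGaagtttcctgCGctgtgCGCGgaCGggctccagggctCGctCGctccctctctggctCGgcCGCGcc
Sytl2, Pax5(R31Q/-) only, exon, chr7:90302280-90302530 (plus strand): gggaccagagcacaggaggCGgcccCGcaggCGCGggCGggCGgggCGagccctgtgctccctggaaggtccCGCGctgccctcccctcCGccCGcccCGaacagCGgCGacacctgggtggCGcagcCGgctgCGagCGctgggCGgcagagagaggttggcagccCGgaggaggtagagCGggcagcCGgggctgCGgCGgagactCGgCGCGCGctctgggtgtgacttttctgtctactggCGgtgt
They hold 28 and 29 CG dinucleotides, and the windows of Gdpd1 and Zfp580 hold 30 and 27. Those of 6720489N17Rik and Rtn4rl2 hold 9 and 17. The median was 7 over all 3470 peaks found only in Pax5(R31Q/-), 13 over the common peaks of the Pax5(+/+) list and 2 over its 26256 unique peaks, most of which lie in repeats (3 over the 7372 that were mostly outside repeats). The 2 Gstp windows hold 4 and 3. The medians cover peaks at any distance from a start, whereas the windows of members were taken at TSS peaks. Medians over TSS peaks alone were not computed, so the medians are not a like-for-like background.

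Peaks were also counted across the gene and 10 kb to either side. Of Pax5(+/+) peaks, 49 of 71 were kept at lower genes, 52 of 88 at higher genes and 15953 of 21036 at all genes. The counts are per gene, so the 2 lost peaks near Gstp1 and Gstp2 were counted for both. Single genes held many of the peaks: Itga9 had 10 with 4 kept, Nav2 12 with 6 kept and Sema4b 10 with 7 kept. Genes with at least 1 peak found only in Pax5(R31Q/-) made up 27.6% of the lower genes, 34.0% of the higher genes and 22.8% of all. Siglech and Cox6a2 had no Pax5 peak in either list within these bounds. Cd74 had 1 kept and 1 lost peak, and Spns3 had 1 kept peak, 1 lost peak and 1 found only in Pax5(R31Q/-).

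Parts of the Pax5 recognition sequence were searched on both strands in the 251-base windows. The 7-letter string GCGTGAC occurred in 6.73% of the common and 1.65% of the unique Pax5(+/+) peaks (5.20% of the latter that were mostly outside repeats) and 2.88% of those found only in Pax5(R31Q/-). It was in none of the 12 windows searched at members, which are TSS peaks of the 9 genes whose peak at the start was lost or found only in Pax5(R31Q/-), and other peaks at members were not searched. The string GCANCCA, where N is any base, occurred in 20.98%, 7.75% and 23.08% of these peaks (23.55% of the unique Pax5(+/+) peaks mostly outside repeats), and among these 12 windows in the upstream Mgst2 window, at base 174. In RefSeq promoters of 301 bases, GCGTGAC was in 2.09% of 32851 and in those of Glrx3, Pgf and Zap70 among 46 members with a promoter sequence, and GCANCCA was in 20.36% and in those of 9 members. A match is only a description of the letters.

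The 76 genes that matched RefSeq were spread over 20 chromosomes. None lay within 10 Mb of Pax5, where 92 of the 10190 genes lie. Chromosome 9 held 11 (14.5% against 5.50% of all genes), among them Cxcr5, Amotl1, Oaf and Trf. Neighbors within 250 kb that were both members were Slc43a1 and Rtn4rl2, both higher and 7.7 kb apart, Ypel2 and Gdpd1, both higher, 6720489N17Rik and Fbp1, both higher, Gstp1, Gstp2 and Clcf1, all lower, and Snord52 and Mir6973a, in opposite directions. In the absence of strand information, values of members that overlap another gene, such as Cox6a2 with Itgad or Efhd1 with Gm41911, are uncertain.

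In Pax5-null cells against Pax5(+/+), limma called 7 of the 29 lower genes higher and 1 lower, and 11 of the 48 higher genes lower and 2 higher, where 35.9% of all genes were called. The genes called in the same direction as in Pax5(R31Q/-) were Prodh (adjusted p = 0.0349 from limma), Slc43a1 (adjusted p = 0.0101) and Oaf (adjusted p = 0.0429). The rule used this contrast, so these counts describe the 77 genes only, and a missing call does not show equal levels.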

How the data were processed

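mRNA of 8 sorted bone marrow libraries (4 genotypes, 2 each) was sequenced, and Pax5 peaks were called in 2 ChIP-seq libraries of cultured pro-B cells. The authors deposited TPM values per RefSeq gene (mm10), made from uniquely mapping reads counted with featureCounts after removal of rDNA; the submitters' processing notes name STAR 2.4.2, Bowtie2 2.3.5.1, SAMtools 1.9 and Picard 2.18.27. Whether counting used strand is not given in the sources used here. Peaks were deposited as positions per library, without peak heights, and were called by the authors with MACS against an input control. Depth (21625407 to 34488454 reads) was recovered from TPM steps that gave whole reads for 18206 of 18206 genes (tolerance 1e-05).

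The count models of the authors could not be the main test on TPM, so limma 3.58.1 in R 4.3.3 was fitted to log2(TPM + 1) of all 8 libraries (4 groups, trended variance, 13436 genes with at least 1 TPM in 1 library, Benjamini-Hochberg adjustment, 0.05). For 2 against 2 libraries an exact permutation test cannot go below p = 0.333. In data simulated for Pax5(+/-) against Pax5(+/+), 9.5% of 2-fold and 99.0% of 4-fold changes were recovered among 13370 genes. Rows under Ensembl identifiers with immunoglobulin symbols were dropped (16 genes that otherwise met the rule). The members and lists were chosen with earlier results of these data known. Named members were those with the largest Pax5(R31Q/-) differences, the largest opposite Pax5-null differences, the highest level, a TSS peak lost or found only in Pax5(R31Q/-), or a place in a gene list; others are named by role. Peaks with at least 1 shared base were common. Sequences are from RefSeq GRCm38.p6. Alternatives covered pseudocount, filters, scaling, limits of the rule, leave-outs and peak distances.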

Additional observations from a re-analysis of the deposited data

How the results depend on the processing

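The rule gave 57 to 109 genes under 6 other settings of pseudocount, level, Pax5-null limit and scaling, 15 above 3-fold, 93 when immunoglobulin genes were dropped by row name only, and 67 to 113 without 1 library. Pax5(R31Q/-) differences of the 34 named genes were recomputed under the settings that can change them (238 values). They moved by more than their spread in 14 and changed sign in 0. Leaving out 1 of 2 libraries cannot move a value beyond this spread, so the 14 came from the pseudocount and scaling settings. Without Pax5(+/+) library 2, Hsph1 went from 1.23 to 0.51 and still counted as unmoved. Pax5(+/-) against Pax5(+/+) gave 28 calls without a filter (with 1 member, Oaf), 29 without a variance trend, 9 after median-ratio scaling, 35 with limma-voom and 1 without each library in turn. Pax5(R31Q/-) against Pax5(+/-) gave 37 calls with 4 members without a filter, 403 with 44 in a fit of those groups alone, 193 with 22 by limma-voom, and 0 to 9 calls with 0 to 1 members without 1 library, where the lone library was assumed to vary like the other groups. At 0.2 kb, 10 lower genes had a Pax5(+/+) peak at the start and 1 lost it, and 1 higher gene lost it at 2.5 kb or when peaks had to share most of both lengths. The row-name setting and limma-voom were chosen after seeing the data. Rescaling moved the median Pax5-null difference of all genes from -0.15 to -0.06 or -0.04. No paired analysis was possible because the labels give no replicate numbers shared between genotypes. The cause of each change was not tested. With 2 libraries per genotype, 2-fold changes were mostly under the reach of the test in the data simulated for Pax5(+/-) against Pax5(+/+). Other contrasts were not simulated, and each ChIP-seq list rests on 1 library.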
